A study of Mus musculus with 10 samples.

Results

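The genes described here are 10 that encode inhibitory and costimulatory receptors of T cells and proteins that engage or accompany them: Cd28, Icos, Pdcd1, Btla, Lag3, Havcr2, Tigit, Cd200, Cd274 and Cd83. They were chosen by name, with earlier results of these data known. All 10 were found among the 22180 genes that the array measured with a probe set of 1 gene symbol. Each had exactly 1 such probe set. Messenger RNA was measured in 10 samples, each on 1 array, from cultures of CD4-positive lymphocytes taken from spleens of female wild-type Balb/c mice aged 10 to 14 weeks. The Th17 group (n = 4) was polarised with 20 ng/ml IL-6, 5 ng/ml TGF-beta and 10 ng/ml IL-23, together with 10 µg/ml of an antibody to interferon gamma. The Th2 group (n = 3) was given 100 ng/ml IL-4 with that antibody at that dose. The Th0 group (n = 3), the control, had no polarising cytokine and no antibody to interferon gamma, so every comparison with Th0 also sets cultures with the antibody against cultures without it. All 3 groups were stimulated through CD3, with 4 µg/ml of antibody, and through CD28, with 30 ng/ml, so the product of one of the 10 genes, CD28, was itself engaged in every culture. Fresh medium was given at 72 h. Cells are named by culture condition. Of 9 measured label genes of the 3 conditions, 7 differences of Th2 from Th0 were positive and 2 negative, and 0 passed the test used below. Il5 was at 5.70, 6.61 and 6.51 on the Th2 arrays and 5.28, 4.26 and 5.40 on the Th0 arrays. Gata3 was at 8.15, 7.28 and 7.14 against 7.43, 8.14 and 7.68. Il17a was between 10.14 and 10.54 on the Th17 arrays and highest elsewhere on Th2 replicate 3, at 7.89.

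T cells are activated when the antigen receptor and a costimulatory receptor are engaged together, and inhibitory receptors then limit the response. CD28 and ICOS are costimulatory members of the CD28 family and recruit phosphatidylinositol 3-kinase, whereas PD-1 (Pdcd1) and BTLA carry cytoplasmic tyrosine motifs that recruit phosphatases. LAG-3, TIM-3 (Havcr2) and TIGIT are inhibitory receptors outside that family, and PD-1, LAG-3, TIM-3 and TIGIT are commonly used as markers of T cells under prolonged stimulation. PD-L1 (Cd274) is a ligand of PD-1, CD200 signals to an inhibitory receptor found mainly on myeloid cells, and CD83 is a surface glycoprotein of activated dendritic cells and lymphocytes.

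No member passed the test in any comparison, and the spread between replicate arrays was above that of the median gene for every member. In Th17 against Th0, 0 of the 10 members had an adjusted p under 0.05 (limma, Benjamini-Hochberg adjustment over all genes), where 0.104% of all genes did, and 1 member had an unadjusted p under 0.05, as 5.17% of all genes did. In Th2 against Th0 the counts were 0 (0% of all genes) and 3 (6.34% of all genes), and in Th17 against Th2 they were 0 (0.0766%) and 2 (6.25%). The moderated F test over the 3 groups called 0 members (0.0631% of all genes), and 2 had an unadjusted p under 0.05 (6.2% of all genes). Adjusted p-values of the members ran from 0.945 to 0.999 in Th17 against Th0, from 0.767 to 0.940 in Th2 against Th0 and from 0.606 upward in Th17 against Th2. The SD left within groups was above the median of all genes, 0.26, for all 10 members, and lay between 0.37 (Cd28) and 1.00 (Tigit) on the log2 scale. These 2 were at percentiles 76.9 and 99.2 of all genes. Weakly detected genes are part of that reference, because no filter on low values was used. The median difference of the members was 0.23 for Th17 minus Th0 (6 positive and 4 negative), 0.54 for Th2 minus Th0 (7 and 3) and -0.08 for Th17 minus Th2 (3 and 7), beside -0.02, -0.01 and -0.0082 over all genes. These medians moved when arrays were left out. For Th2 minus Th0 the median was 0.23 without Th0 replicate 3 and 0.02, with 5 positive and 5 negative, without the 3 arrays that stand apart below. For Th17 minus Th0 it was 0.09 without those 3 arrays, 0.07 without Th0 replicate 3, -0.03 without Th0 replicate 1 and 0.41 without Th0 replicate 2, and for Th17 minus Th2 it was 0.14 without the 3 arrays. The 2 comparisons with Th0 share the 3 Th0 arrays. Exact permutation tests could not pass 0.05 here, because the smallest two-sided p is 0.1 for 3 against 3 arrays and 0.0571 for 3 against 4, and the smallest reached by a member was 0.1. In Th17 against Th0 the arrays of the 2 groups failed to overlap for 0 members (7.57% of all genes, 3.22% higher and 4.35% lower), in Th2 against Th0 for 1 (8.43%, 4.48% higher and 3.94% lower) and in Th17 against Th2 for 0 (5.6%, 2.6% higher and 3.0% lower).

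**Figure D1:**
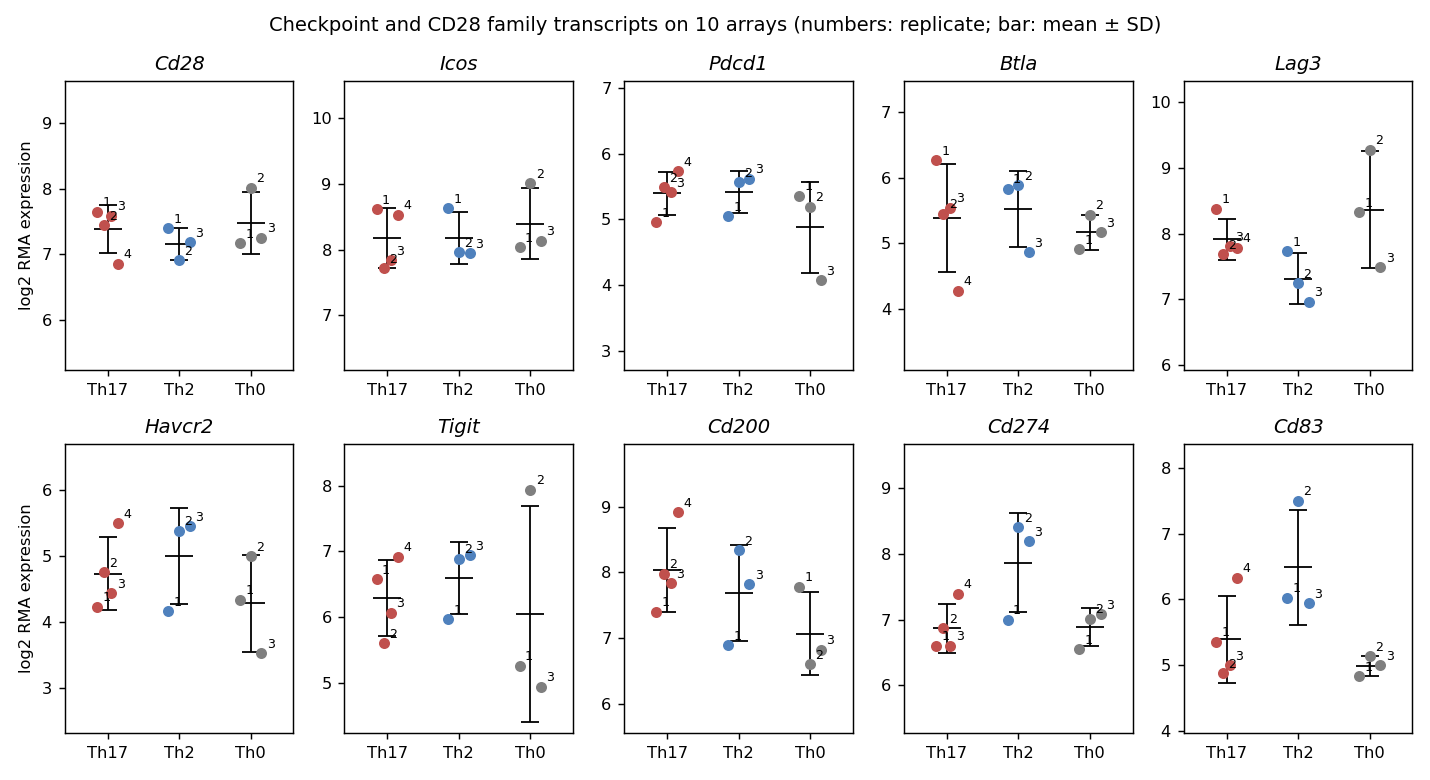
Log2 RMA expression of the 10 genes (1 panel each, all panels spanning the same number of log2 units) in Th17, Th2 and Th0 cultures; points are arrays with their replicate number and bars are mean ± SD. The groups overlap for every gene except Cd83, whose 3 Th2 arrays (5.95 to 7.50) lie above the 3 Th0 arrays (4.84 to 5.14).

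Arrays of 1 group did not behave alike, and several members were among the genes that varied between them. A first principal component computed without the 10 members held 35.8% of the variance, with scores of 37.5 on Th17 replicate 4, 38.8 on Th2 replicate 2 and 55.7 on Th2 replicate 3, and of -0.91 or lower on the remaining 7 arrays. Pdcd1, Havcr2 and Cd274 each had their 3 highest values on those 3 arrays, a pattern that 3.3% of all genes had. No member had its 3 lowest values there, as 6.56% of all genes did. On these 3 arrays 7, 7 and 6 of the 10 members lay above their own mean over the 10 arrays, whereas on Th0 replicate 3 none did. The means of 8 T cell identity genes were 8.29, 8.41 and 8.20 on Th17 replicate 4 and Th2 replicates 2 and 3, and 8.62 or higher on the other arrays. A list of 9 cell cycle genes averaged 6.69, 6.52 and 6.35 on those 3 arrays but also 6.496 on Th17 replicate 2, against 7.20 or more on the other 6. The part of these differences between arrays in the members' values was not tested, and the differences of each member without the 3 arrays are given in its paragraph. In those fits Th2 replicate 1 is all that is left of the Th2 group. T cell markers other than Trat1 were high throughout (Cd3e between 9.36 and 10.44, Cd4 between 7.09 and 8.76). Array medians lay between 3.39 and 3.61. Trat1, which is part of the T cell means above, ran from 4.19 on Th17 replicate 4 to 8.19 on Th2 replicate 1. Its values on each Th17 array and on Th2 replicate 3 were lower than on any Th0 array. Lists of markers of other cells were lower than the T cell list, with exceptions among single genes. The 10 dendritic and myeloid markers averaged between 3.22 and 4.39 and the 8 B cell markers between 3.35 and 4.40, both highest on Th17 replicate 1, where S100a8 was at 7.16 and the immunoglobulin gene Ighm at 10.41. The B cell mean was nearly as high, 4.37, on Th0 replicate 2. Ighm was also at 9.68 on Th0 replicate 2 and 8.17 on Th2 replicate 1. On Th17 replicate 1 Cd79a (4.21) and Cd79b (4.78) were at their highest, whereas Ms4a1, Cr2, Pax5, Cd22 and Blk were at 3.89 or less. The 8 basophil and mast cell markers averaged 5.58 and 5.65 on Th17 replicates 2 and 3 and 6.91 on Th0 replicate 1. They averaged 4.24 or less on the other 7 arrays. Cpa3 was at 9.28, 9.35 and 10.74 on those first 3, but also at 6.86 on Th0 replicate 3 and 6.20 on Th2 replicate 1. Without the 3 arrays highest in these markers Th17 minus Th0 was 1.45 for Cd200 (0.96 with all arrays) and 0.77 for Cd83 (0.40 with all arrays). Th2 minus Th0 was then 0.16 for Tigit (0.55 with all arrays), and Th17 minus Th2 was -0.65 for Cd83 (-1.10 with all arrays). The part of these cells was not tested. In bulk RNA, fewer cells expressing a gene and less RNA per cell cannot be told apart.

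**Figure D2:**
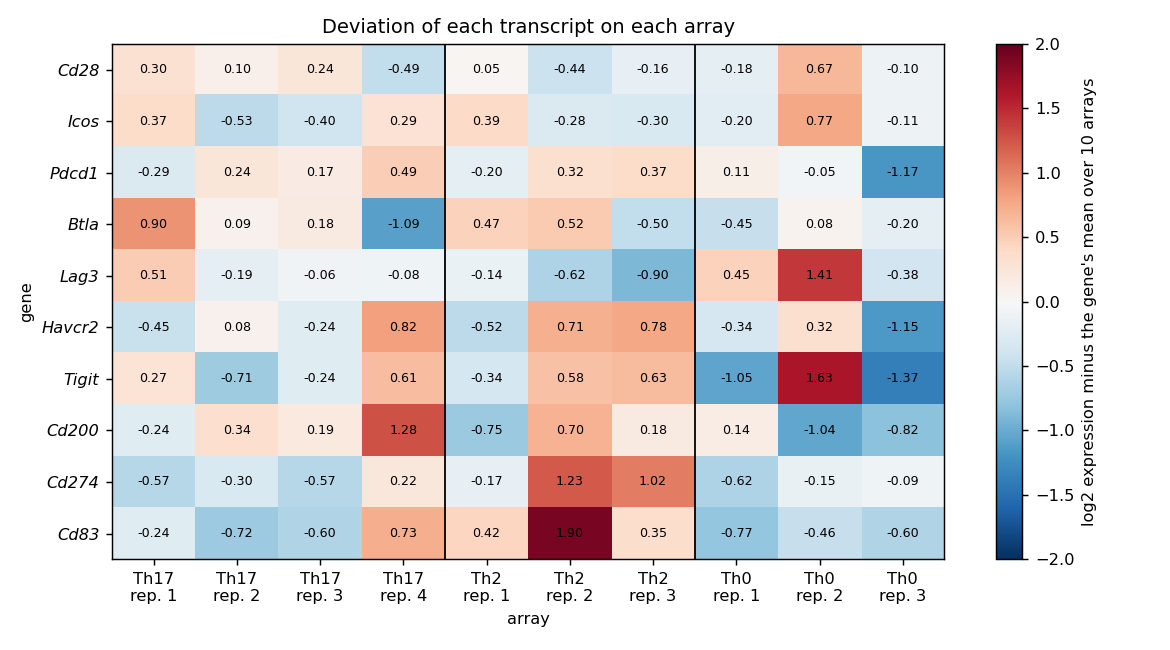
Log2 expression of each gene (rows) on each array (columns, grouped as Th17, Th2 and Th0 by the black lines) minus that gene's mean over the 10 arrays. Cd28, Icos, Lag3 and Tigit were highest on Th0 replicate 2, and Cd274 and Cd83 on Th2 replicate 2.

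The promoters of Pdcd1, Havcr2 and Cd274 are shown because these are the 3 members that shared the array pattern. Each window runs from 250 bases before a transcription start in RefSeq (GRCm38.p6) to 50 after it, written 5′ to 3′ in the gene's direction. For Pdcd1 and Havcr2 that start is the annotated 5′ end of the gene, whereas the annotated Cd274 gene reaches further upstream than its window. Windows were present for 6 of the 10 members. Pdcd1 is at chr1:94052504-94052803 on the minus strand, Havcr2 at chr11:46454681-46454980 on the plus strand and Cd274 at chr19:29367188-29367487 on the plus strand. Capitals mark matches on either strand to the letters GGAAA, the core recognised by NFAT factors, or TGANTCA, an AP-1 site, where N is any base.
Pdcd1: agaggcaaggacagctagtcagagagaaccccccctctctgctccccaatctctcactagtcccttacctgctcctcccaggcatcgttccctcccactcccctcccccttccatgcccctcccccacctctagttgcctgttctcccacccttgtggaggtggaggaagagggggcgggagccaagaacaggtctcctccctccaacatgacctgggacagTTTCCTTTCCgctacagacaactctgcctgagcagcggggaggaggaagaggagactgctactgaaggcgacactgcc
Havcr2: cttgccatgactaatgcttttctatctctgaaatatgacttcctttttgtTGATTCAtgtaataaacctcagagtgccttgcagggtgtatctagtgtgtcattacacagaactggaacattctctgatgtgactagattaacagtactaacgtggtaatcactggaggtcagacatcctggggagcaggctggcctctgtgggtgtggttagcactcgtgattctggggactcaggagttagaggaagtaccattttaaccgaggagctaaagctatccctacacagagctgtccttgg
Cd274: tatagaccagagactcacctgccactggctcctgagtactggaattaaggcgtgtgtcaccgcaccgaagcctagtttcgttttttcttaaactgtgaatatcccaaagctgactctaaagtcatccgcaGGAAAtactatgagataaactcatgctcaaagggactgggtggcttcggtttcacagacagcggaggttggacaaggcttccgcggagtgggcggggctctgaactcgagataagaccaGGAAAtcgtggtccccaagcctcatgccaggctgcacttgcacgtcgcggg
Pdcd1 and Cd274 each held 2 matches to GGAAA, which 61.3% of the 32851 promoter windows in the table contained at least once, and in Pdcd1 both lay side by side on the opposite strand, as TTTCC. Tigit also held 2, and Btla and Cd200 held 0. Havcr2 held 0 matches to GGAAA and 1 to TGANTCA, which 7.81% of windows contained, and none of the other 5 windows held it. TTCNNNGAA (a STAT site, in 8.30% of windows), a loose kappaB motif (50.8%) and an IRF motif whose letters can overlap GGAAA (3.44%) had 0 matches in the 6 windows. No one of the 5 motifs was present in all 3 promoters.

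**Figure D3:**
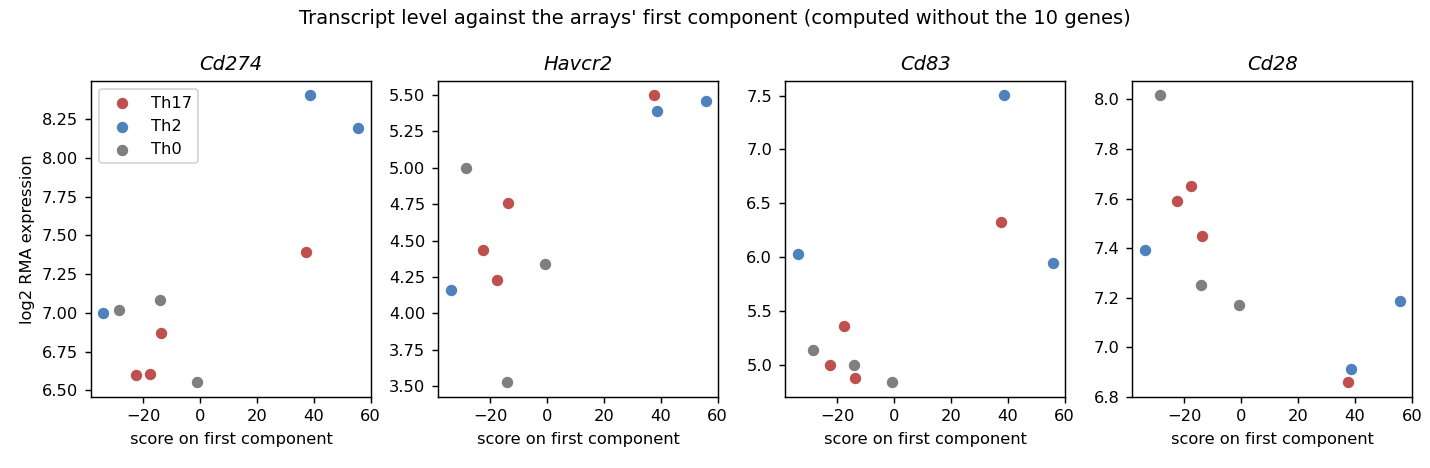
Log2 RMA expression of Cd274, Havcr2, Cd83 and Cd28 (vertical axes) against the score of each array on the first principal component, computed without the 10 genes (horizontal axes); colours give the group. The 3 arrays with scores of 37.5 to 55.7 hold the 3 highest values of Cd274 and Havcr2, while Cd83 is high on Th2 replicate 2 and Cd28 is lowest on Th17 replicate 4.

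Among the costimulatory receptors, Cd28, the receptor engaged by the culture antibody and by CD80 and CD86, was the most even of the 10. It was at 7.65, 7.45, 7.59 and 6.86 on Th17 replicates 1 to 4, at 7.39, 6.91 and 7.19 on Th2 replicates 1 to 3 and at 7.17, 8.02 and 7.25 on Th0 replicates 1 to 3. The 3 groups overlapped, with the highest value on Th0 replicate 2 and the lowest on Th17 replicate 4. Its differences were -0.09 ± 0.25 (SE) for Th17 minus Th0, with a 95% interval from -0.65 to 0.46 (adjusted p = 0.999), -0.32 ± 0.27 for Th2 minus Th0 (interval -0.91 to 0.28, adjusted p = 0.873) and 0.22 ± 0.25 for Th17 minus Th2 (interval -0.33 to 0.78, adjusted p = 0.961). The fit thus left room for at most a 1.57-fold lower or 1.38-fold higher level in Th17 than in Th0 cells at that confidence. Without the 3 arrays apart the differences, in the same order, were 0.083, -0.086 and 0.169.

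Icos, the inducible costimulator that supports follicular helper and effector T cells, read 8.62, 7.72, 7.84 and 8.53 on the Th17 arrays, 8.63, 7.96 and 7.94 on the Th2 arrays and 8.04, 9.01 and 8.14 on the Th0 arrays. Each group held both a value above 8.5 and one near or below 8, so the groups overlapped. The group means were 8.18 ± 0.46 in Th17 (SD, n = 4), 8.18 ± 0.39 in Th2 (SD, n = 3) and 8.40 ± 0.54 in Th0 cells (SD, n = 3). Th17 and Th2 differed by -0.0022 ± 0.31 (SE), with an interval from -0.68 to 0.67. Differences from Th0 were -0.22 in both polarised groups (adjusted p = 0.999 for Th17 and 0.940 for Th2), and both became positive, at 0.09, without Th0 replicate 2. With those 3 arrays left out Th17 minus Th0 was -0.34, Th2 minus Th0 0.24 and Th17 minus Th2 -0.57. In the RefSeq gene order, Ctla4 lies between Cd28 and Icos with no other protein-coding gene among them. Ctla4, the inhibitory member of the family that competes with CD28 for its ligands, was named for that position after its values were seen: it was at 7.86, 6.43, 7.27 and 7.17 on the Th17 arrays, 6.84, 6.80 and 6.89 on the Th2 arrays and 6.67, 7.91 and 6.37 on the Th0 arrays, and its differences of 0.19 (Th17 minus Th0) and -0.14 (Th2 minus Th0) did not pass (adjusted p = 0.999 and 0.971).

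Of the inhibitory receptors of the CD28 family, Pdcd1 (PD-1) was at 4.95, 5.49, 5.41 and 5.73 on the Th17 arrays, 5.05, 5.57 and 5.62 on the Th2 arrays and 5.36, 5.19 and 4.07 on the Th0 arrays. Th0 replicate 3 alone stood below the other 9 arrays. The mean was 5.40 ± 0.33 in Th17 (SD, n = 4) and 5.41 ± 0.32 in Th2 cells (SD, n = 3), against 4.87 ± 0.70 in Th0 cells (SD, n = 3). The differences from Th0, 0.52 ± 0.30 (SE) for Th17 and 0.54 ± 0.33 for Th2, did not pass (adjusted p = 0.999 and 0.820, exact permutation p = 0.286 and 0.3). Without Th0 replicate 3 they were 0.12 and 0.14. They were 0.41 and 0.17 without the 3 arrays apart, so that of Th2 from Th0 was small in either case. Th17 and Th2 differed by -0.01 with an interval from -0.68 to 0.66, and by 0.24 without the 3 arrays.

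Btla, which binds the TNF receptor family member HVEM (Tnfrsf14), was at 6.26, 5.45, 5.54 and 4.28 on the Th17 arrays, 5.83, 5.89 and 4.86 on the Th2 arrays and 4.91, 5.44 and 5.17 on the Th0 arrays. Both the highest and the lowest of the 10 values lay in the Th17 group, on replicates 1 and 4. The group means, 5.38 in Th17, 5.53 in Th2 and 5.17 in Th0 cells, lay within 0.36 of each other, where the SD was 0.82 in Th17 (n = 4), 0.57 in Th2 (n = 3) and 0.27 in Th0 cells (n = 3). Its differences were 0.21 for Th17 minus Th0, 0.36 for Th2 minus Th0 and -0.14 for Th17 minus Th2 (adjusted p = 0.999, 0.918 and 0.995). They were 0.58, 0.66 and -0.08 without the 3 arrays apart. Btla and Cd200 are neighbouring protein-coding genes in RefSeq, but on Th17 replicate 4 Btla was at its lowest and Cd200 at its highest.

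**Figure D4:**
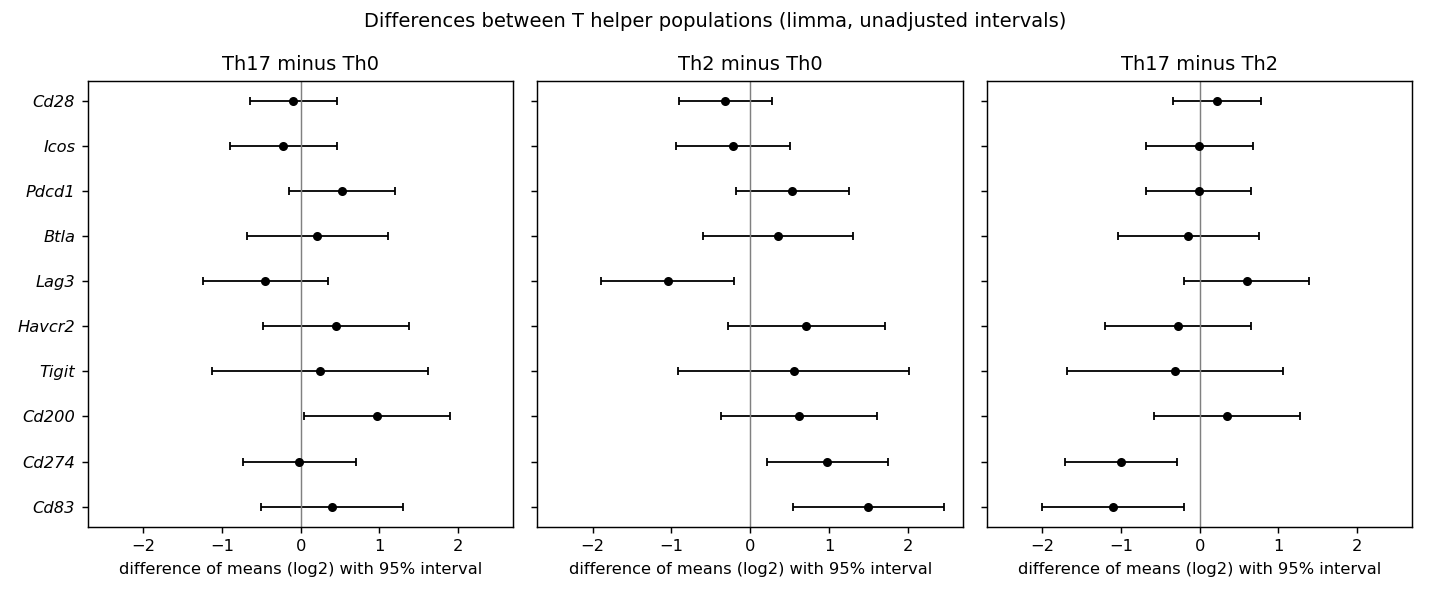
Differences of group means (log2, points) with 95% intervals of the limma fit, not adjusted for multiple testing (horizontal bars), for the 10 genes in Th17 minus Th0, Th2 minus Th0 and Th17 minus Th2. The intervals leave out 0 for Cd200 in the first panel, for Lag3, Cd274 and Cd83 in the second and for Cd274 and Cd83 in the third, and no adjusted p was under 0.05.

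Lag3, an inhibitory receptor that binds MHC class II, was the member with the lowest mean in Th2 relative to Th0. It read 8.38, 7.68, 7.80 and 7.78 on the Th17 arrays, 7.73, 7.25 and 6.96 on the Th2 arrays and 8.32, 9.28 and 7.49 on the Th0 arrays. The Th2 arrays held the 2 lowest values, but Th2 replicate 1 lay above Th0 replicate 3 and above Th17 replicate 2. The mean was 7.31 ± 0.39 in Th2 cells (SD, n = 3), against 8.36 ± 0.89 in Th0 cells (SD, n = 3), a difference of -1.05 ± 0.38 (SE) or 2.07-fold lower (interval -1.90 to -0.20, unadjusted p = 0.0199, adjusted p = 0.767, limma). It ran from -1.48 to -0.59 when single arrays were left out, with -0.59 without Th0 replicate 2, and was -0.63 without the 3 arrays apart on the first component. Th17 cells lay between, at 7.91 ± 0.31 (SD, n = 4), with differences of -0.45 ± 0.36 (SE) from Th0 and 0.60 ± 0.36 from Th2 (adjusted p = 0.999 and 0.908), neither past the threshold. These were -0.41 and 0.22 without the 3 arrays apart. Without Th0 replicate 2 the difference of Th17 from Th0 was 0.0054. LAG-3 and TIGIT are also carried by CD8 T cells and NK cells, and the 8 markers of those cells averaged between 4.91 and 5.15 on the Th17 arrays, between 4.25 and 4.50 on the Th2 arrays and 4.23, 5.32 and 4.43 on Th0 replicates 1 to 3, highest on the array where Lag3 and Tigit were highest. These markers were mixed. On Th0 replicate 2 Cd8a (5.63), Cd8b1 (7.21), Gzma (9.03) and Prf1 (6.01) were at their highest. Ncr1 (3.63), Klrb1c (2.61), Klrd1 (4.85) and Klrk1 (3.57) were higher on other arrays. Klrd1 was between 5.84 and 7.17 on the Th17 arrays and at 4.85 or less on the others. The part of CD8 T cells and NK cells in the Lag3 and Tigit values was not tested.

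Havcr2 (TIM-3), first described on interferon gamma-producing T cells, was at 4.23, 4.76, 4.44 and 5.50 on the Th17 arrays, 4.16, 5.39 and 5.46 on the Th2 arrays and 4.34, 5.00 and 3.52 on the Th0 arrays. The signal was weak, and the value on Th0 replicate 3 lay near that array's median over all probe sets, 3.48. Th17 replicate 4 and Th2 replicates 2 and 3 were the highest, and the other 4 arrays of the Th17 and Th2 groups lay within the range of the Th0 values. The difference of Th2 from Th0 was 0.71 ± 0.45 (SE, adjusted p = 0.827), and without the 3 arrays apart, which leaves Th2 replicate 1 as the lone Th2 array, it was -0.13. That of Th17 from Th0 was 0.44 ± 0.42 (adjusted p = 0.999) and 0.19 without the 3 arrays. Th17 minus Th2 was -0.27 (adjusted p = 0.977), and 0.31 without them.

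Tigit, an inhibitory receptor for CD155 (Pvr) that is abundant on regulatory and follicular helper T cells, varied most. Its values were 6.58, 5.60, 6.07 and 6.92 in Th17, 5.97, 6.89 and 6.94 in Th2 and 5.26, 7.94 and 4.94 in Th0 cultures. The Th0 group alone held the highest and the 2 lowest values, an SD of 1.65 (n = 3) against 0.58 in Th17 (n = 4) and 0.55 in Th2 cells (n = 3). The difference of Th2 from Th0, 0.55 ± 0.66 (SE, -0.91 to 2.02, adjusted p = 0.915), had an interval from a 1.88-fold lower to a 4.05-fold higher level, and without Th0 replicate 2 it was 1.498. Without the 3 arrays apart Th2 minus Th0 was -0.08, Th17 minus Th0 0.04 (0.25 with all arrays) and Th17 minus Th2 0.12 (-0.31 with all arrays). The difference of Th17 from Th0 moved between -0.31 and 1.19 as single arrays were left out, with 1.19 also reached without Th0 replicate 2. The regulatory T cell factor Foxp3 was at 7.55, 6.77, 6.70 and 6.92 on the Th17 arrays. It was at 7.51, 5.93 and 6.06 on the Th2 arrays and 8.25, 7.26 and 7.94 on the Th0 arrays. Of the regulatory T cell markers, Foxp3, Ikzf2 and Lrrc32 were lowest within Th0 on replicate 2, whereas Il2ra and Ikzf4 were lowest on replicate 1. The part of regulatory T cells in the Tigit values was not tested.

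Of the surface ligands, Cd274 (PD-L1) was highest in Th2 cultures by mean. It was at 6.60, 6.87, 6.60 and 7.39 on the Th17 arrays, 7.001, 8.40 and 8.19 on the Th2 arrays and 6.55, 7.02 and 7.09 on the Th0 arrays. Th2 replicates 2 and 3 stood above every other array, while Th2 replicate 1 lay among the Th0 values. The mean was 7.87 ± 0.76 in Th2 (SD, n = 3), against 6.88 ± 0.29 in Th0 cells (SD, n = 3), a difference of 0.98 ± 0.35 (SE) or 1.97-fold (unadjusted p = 0.0164, adjusted p = 0.767, limma). Th17 cells, at 6.87 ± 0.37 (SD, n = 4), differed from Th2 cells by -0.997 ± 0.32 (SE, unadjusted p = 0.0105, adjusted p = 0.606) and from Th0 cells by -0.02 (interval -0.73 to 0.70). Without Th2 replicate 1, Cd274 passed the test in both comparisons with Th2, at 1.41 for Th2 minus Th0 (adjusted p = 0.0300) and -1.43 for Th17 minus Th2 (adjusted p = 0.0274), in a fit that called 431 and 298 of all genes. Without the 3 arrays apart on the first component, which leaves only Th2 replicate 1 of the Th2 arrays, the same differences were 0.12 and -0.31, and Th17 minus Th0 was -0.19. Ifng, the interferon gamma gene, was at 7.995, 9.497 and 10.31 on the Th2 arrays and 9.07, 7.898 and 6.59 on the Th0 arrays. It was also at 9.93 and 9.48 on Th17 replicates 2 and 3, where Cd274 was at 6.87 and 6.60. The part of interferon gamma in the Cd274 values was not tested.

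Cd83 was the 1 member whose groups did not overlap in a comparison: in Th2 against Th0 it was higher on each Th2 array, as 4.48% of all genes were. It was at 5.36, 4.88, 5.00 and 6.33 on the Th17 arrays, 6.02, 7.50 and 5.95 on the Th2 arrays and 4.84, 5.14 and 5.00 on the Th0 arrays. The 3 Th0 arrays were close together, and Th2 replicate 2 stood more than 1 log2 unit above every other array. The mean was 6.49 ± 0.88 in Th2 (SD, n = 3), against 4.99 ± 0.15 in Th0 cells (SD, n = 3), a difference of 1.4997 ± 0.44 (SE) or 2.83-fold, with an interval from 0.54 to 2.46 (unadjusted p = 0.00553, adjusted p = 0.767, exact permutation p = 0.1, the smallest possible). Th17 minus Th2 was -1.10 ± 0.41 (SE, adjusted p = 0.676), and Th17 minus Th0 was 0.40 ± 0.41 (adjusted p = 0.999). Without Th2 replicate 2 the difference of Th2 from Th0 was 0.99 (adjusted p = 0.998), and without the 3 arrays apart it was 1.03 (adjusted p = 0.927). Th17 minus Th2 was -0.59 without Th2 replicate 2 and -0.95 without the 3 arrays. Th17 minus Th0 was 0.09 both without Th17 replicate 4 and without the 3 arrays. Since Cd83 and Cd274 are also carried by dendritic cells and B cells, their markers are given beside them: the 10 dendritic and myeloid markers averaged between 3.23 and 3.42 on the 3 Th2 arrays, against 3.29 to 3.49 on the 3 Th0 arrays. The 8 B cell markers averaged between 3.46 and 3.95 on the Th2 arrays, against 3.64 to 4.37 on the Th0 arrays. That 0 genes of either list were called says little, because 0 of all genes were called in Th2 against Th0. Of the dendritic and myeloid markers 4 differences of Th2 from Th0 were positive and 6 negative. For 2 of them each Th2 array lay above each Th0 array. Flt3, 1 of these, was at 3.69, 4.24 and 3.57 on the Th2 arrays and 3.48, 3.49 and 3.32 on the Th0 arrays. The part of such cells in the Cd274 and Cd83 values was not tested. A list of 10 T cell activation genes averaged 9.03 and 8.69 on Th2 replicates 2 and 3, and 8.43 or less on every other array. Its genes were mixed, with 7 positive and 3 negative differences for Th2 minus Th0. Cd69 (10.22 and 9.55) and Egr2 (9.05 and 9.13) had their 2 highest values on those 2 arrays, whereas Tnfrsf18 (8.01 and 7.78) had its 2 lowest. The part of activation in the Cd274 and Cd83 values was not tested.

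**Figure D5:**
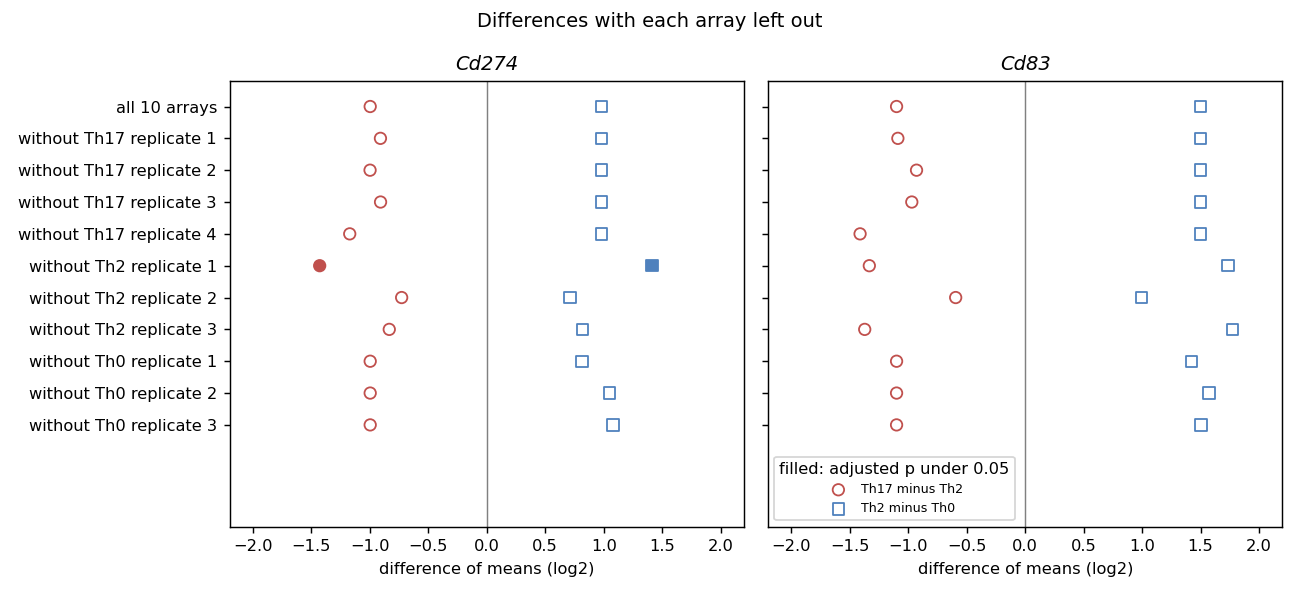
Differences of Cd274 and Cd83 (log2) for Th17 minus Th2 (circles) and Th2 minus Th0 (squares) with all 10 arrays and with each array left out; filled symbols had an adjusted p under 0.05. Each difference shown keeps its side of 0, and of those shown only the 2 for Cd274 without Th2 replicate 1 pass.

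Cd200 had its highest mean in Th17 cells. Its values were 7.40, 7.98, 7.83 and 8.91 on the Th17 arrays, 6.89, 8.34 and 7.82 on the Th2 arrays and 7.78, 6.60 and 6.82 on the Th0 arrays. Th17 replicate 4 was the highest of all, and of the Th17 arrays replicate 1 alone lay below Th0 replicate 1. The mean was 8.03 ± 0.64 in Th17 (SD, n = 4), against 7.07 ± 0.63 in Th0 cells (SD, n = 3), a difference of 0.96 ± 0.42 (SE) or 1.95-fold (interval 0.04 to 1.89, unadjusted p = 0.0430, adjusted p = 0.945, exact permutation p = 0.114). Leaving out single arrays gave values from 0.67, without Th17 replicate 4, to 1.32, without Th0 replicate 1. Th2 minus Th0 was 0.62 ± 0.45 (SE, adjusted p = 0.858), and Th17 minus Th2 was 0.35 ± 0.42 (adjusted p = 0.963). Without the 3 arrays apart Th17 minus Th0 was 0.67, Th2 minus Th0 -0.18 and Th17 minus Th2 0.85.

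Genes that work with these receptors were looked at as 4 lists, and no gene of any list passed the test in any comparison. Of 16 ligands and partners, 0 were called higher and 0 lower in each comparison, with median differences of 0.06 for Th17 minus Th0, -0.05 for Th2 minus Th0 and -0.0066 for Th17 minus Th2, against -0.02, -0.01 and -0.0082 for all genes. Pdcd1lg2 (PD-L2), the other ligand of PD-1 and the neighbour of Cd274 in the RefSeq gene order, had the smallest F-test p of that list. It was at 4.23, 3.92, 3.93 and 4.83 on the Th17 arrays, 5.46, 5.29 and 5.88 on the Th2 arrays and 4.73, 4.72 and 5.46 on the Th0 arrays. Each Th2 array lay above each Th17 array, a difference of -1.31 ± 0.27 (SE) for Th17 minus Th2 (adjusted p = 0.170). Its value on Th2 replicate 1 lay between those on Th2 replicates 2 and 3, whereas Cd274 was lowest on Th2 replicate 1 within that group. Tnfrsf14, the receptor that Btla binds, differed by 0.90 in Th17 both from Th0 and from Th2 (adjusted p = 0.767 and 0.606). Cd86, a ligand of CD28, differed by 0.91 and 0.99 (adjusted p = 0.913 and 0.676), with values of 5.21 and 4.998 on Th17 replicates 1 and 4, whereas no other array exceeded 4.14. Lgals3, which encodes galectin-3, differed by 0.10 from Th0 and 0.47 from Th2.

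Of 18 other inhibitory and costimulatory receptors measured, 0 were called, and the median difference was -0.09 for Th17 minus Th0, -0.25 for Th2 minus Th0 and 0.10 for Th17 minus Th2. Cd101, an inhibitory surface protein, was at 4.66 ± 0.35 in Th17 (SD, n = 4), 4.02 ± 0.25 in Th2 (SD, n = 3) and 3.84 ± 0.12 in Th0 cells (SD, n = 3), and each Th17 array lay above each Th0 array (0.82 ± 0.20, SE, adjusted p = 0.385). Slamf1, an adhesion and costimulatory receptor, was at 7.60, 9.17 and 8.59 on the Th2 arrays and 7.75 or less on the Th0 arrays (0.98 ± 0.36, SE, adjusted p = 0.767), so that Th2 replicates 2 and 3 stood out for it as for Cd274. Cd84 differed by -0.67 in Th17 from Th2 (adjusted p = 0.532) and Cd48 by -0.75 in Th17 from Th0 (adjusted p = 0.931), both members of the SLAM family of adhesion receptors.

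Of 18 receptor signalling genes measured, 0 were called. Their median difference was 0.01 for Th17 minus Th0, -0.42 for Th2 minus Th0 and 0.23 for Th17 minus Th2. Pik3r1, a regulatory subunit of the kinase that CD28 and ICOS recruit, was at 7.03, 6.10 and 5.996 on the Th2 arrays, while the Th0 arrays lay between 6.89 and 7.14, a difference of -0.60 ± 0.27 (SE, adjusted p = 0.777). Sh2d1a, the SLAM-associated adaptor, was at 5.35, 3.55 and 3.65 on the Th2 arrays against 4.92 or more on the Th0 arrays (-0.99 ± 0.43, SE, adjusted p = 0.777). In both genes Th2 replicates 2 and 3, but not replicate 1, lay below the Th0 arrays. The Sh2d1a values on Th2 replicates 2 and 3 were near the medians of those arrays, 3.51 and 3.61. Fyn, a kinase of proximal receptor signalling, was at 7.89 ± 0.39 in Th2 (SD, n = 3) and 7.33 ± 0.05 in Th0 cells (SD, n = 3), a difference of 0.56 (adjusted p = 0.767). Cblb, a ubiquitin ligase that restrains activation without CD28 signals, differed by -0.50 in Th17 and -0.43 in Th2 from Th0 (adjusted p = 0.788 and 0.771).

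Of 14 transcription factors measured that are known to act on checkpoint receptor genes, 0 were called, with median differences of -0.31 for Th17 minus Th0, -0.05 for Th2 minus Th0 and -0.03 for Th17 minus Th2. Maf, which promotes IL-10 and several inhibitory receptors in T cells, was at 9.73, 9.51, 9.08 and 8.63 on the Th17 arrays, 7.25, 5.59 and 6.98 on the Th2 arrays and 7.61, 8.96 and 7.07 on the Th0 arrays. Each Th17 array lay above each Th2 array (2.63 ± 0.49, SE, adjusted p = 0.113). Irf4, induced by antigen receptor signals, was at 9.62 ± 0.30 in Th2 (SD, n = 3) against 8.52 ± 0.78 in Th0 cells (SD, n = 3), adjusted p = 0.767. Nfatc2, a calcium-regulated factor, was at 6.60, 5.30 and 5.11 on the Th2 arrays and 6.21 or more on the Th0 arrays (adjusted p = 0.795), and Tox2 differed by 0.41 in Th17 from Th0 (adjusted p = 0.966).

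The genes whose profile over the 10 arrays came closest to a member were found by the root mean square difference of log2 values after each gene was centred on its own mean, for the 4 members that spanned at least 2 log2 units. They are the closest of many genes over few arrays, and how close a gene comes by chance was not tested. Keap1, Plaur, Eva1a and Zbtb10 lay near the array medians (3.39 to 3.61) on some arrays. For Lag3, whose own root mean square deviation was 0.62, the nearest was Keap1 at 0.18, the sensor of oxidative stress, which was likewise highest on Th0 replicate 2 (5.79) and lowest on Th2 replicate 3 (3.39), followed by Ndrg2 (0.26) and Cd99l2 (0.28). For Cd200, with 0.69 of its own, the nearest was the kinase Nek6 (0.25), then Idi2 (0.29) and Eva1a (0.33). For Cd83, with 0.81 of its own, the nearest was Plaur (0.32), the urokinase receptor, highest on Th2 replicate 2 (5.75) and Th17 replicate 4 (5.38), then Med31 (0.34) and Zbtb10 (0.36). For Tigit, with 0.86 of its own, no gene came closer than Sla at 0.55, an adaptor that dampens antigen receptor signalling, with Glrx and Slc41a1 also at 0.55.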

How the data were processed

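Per the submitters' processing notes, the authors used RMA and Affymetrix Expression Console 1.3.0.187. RMA corrects background, normalizes by quantiles and summarises probes on the log2 scale, and the range of the deposited log2 values fits that scale. The deposited log2 values covered 41345 probe sets on 10 arrays and ran from 1.49 to 13.8. RMA scaling hides changes in total RNA per cell and compresses differences of weak signals, and the number of arrays limits the precision. The sources used here name no genome build.

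Groups came from the sample titles. One Th2 title reads replicate 3 and its description 4, and the title's number is used. Titles call the samples biological replicates, but nothing says that they came from separate animals, and the p-values reflect only how these samples spread. The labels give no batch.

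A probe table paired 23521 probe sets with 1 symbol and 1814 with several, and 16010 were not in it. Each gene was represented by its brightest probe set on average, and no filter on low values was used. Of the Entrez IDs 23328 matched RefSeq (GRCm38.p6), and 0 symbols changed. limma 3.58.1 in R 4.3.3 fitted 3 group means to all 10 arrays, with 7 residual degrees of freedom, and eBayes moderated the variances. Two-sided p-values were adjusted over all 22180 genes (Benjamini-Hochberg), and the threshold was 0.05. Intervals of differences are 95% intervals of that fit and are not adjusted. Exact permutation tests of the difference of means used scipy 1.17.1. The procedure was tested on simulated data whose noise was independent between genes and arrays. No variation shared by an array was simulated, so that run does not bear on the arrays that stand apart. The members and lists were chosen with earlier results of these data known. All members are named, and of each related list the called genes and the 4 with the smallest F-test p. Likeness was taken over named genes, without gene models, small RNA genes and antigen receptor segments. The alternatives tried were another probe set rule, each probe set on its own, a filter on low values, 2 other normalizations, another moderation, array weights, fits of 2 groups only, replicate numbers as a block and fits without 1 or 3 arrays.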

Additional observations from a re-analysis of the deposited data

Results flagged for a closer look

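Cd101, an inhibitory surface protein, read 5.17, 4.43, 4.49 and 4.55 on Th17 replicates 1 to 4. The gap from the highest, replicate 1, to the next was 0.840 of the range of the 4 arrays, more than Dixon's test allows for 4 values. Chance flags about 5% of such groups, and 26 genes were looked at in this way. Replicate 1 was also the Th17 array with the highest mean of dendritic and myeloid markers, 4.39 against 3.26 or less on the other 3 Th17 arrays. On it S100a8 was at 7.16, S100a9 at 6.52 and Lyz2 at 5.43, whereas Itgax, Cd14, Csf1r, Adgre1 and Itgam were at 3.33 or less. The part of such cells in the Cd101 value was not tested.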

How the results depend on the processing

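Each of the 30 member differences was recomputed under 22 alternatives, which gave 660 values: 614 kept their direction and side of the threshold, 42 changed sign and 4 passed the threshold. The differences of 8 members passed under no alternative. The 4 that passed were Cd274 without Th2 replicate 1, at 1.41 for Th2 minus Th0 and -1.43 for Th17 minus Th2, and, with array weights, Th17 minus Th2 for Cd274 (-1.40, adjusted p = 0.0309) and Cd83 (-1.83, adjusted p = 0.0350). The number of members called was therefore 2 with array weights in Th17 against Th2, and it ran from 0 to 1 with single arrays left out in Th2 against Th0, in Th17 against Th2 and in the F test, the 1 being without Th2 replicate 1. The cause was not tested.

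The number of all genes called in Th17 against Th0 was 23. It was 60 with array weights, 4 with each array centred on its median, 7 with each probe set on its own, 46 without the 3 arrays apart on the first component and 3 when Th0 replicate 1 and Th17 replicates 2 and 3, whose mean of basophil and mast cell markers was highest (5.58 or more), were left out. In Th17 against Th2 it was 17, and it was 330 with array weights and 6 without those 3 arrays. In Th2 against Th0 it was 0, and 2 without the 3 arrays apart. Leaving out single arrays gave 2 to 36 genes in Th17 against Th0 (2 without Th0 replicate 3), 0 to 431 in Th2 against Th0 and 3 to 298 in Th17 against Th2, the highest each time without Th2 replicate 1. Fits without the 3 arrays apart keep a lone Th2 array, which is assumed to vary like the other groups.

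Correlations of same-numbered deviations ran from -0.31 to 0.30 by title number, which gave no steady pairing, and up to 0.49 by description number. The 0.49 was for number 4, shared by Th17 replicate 4 and Th2 replicate 3, both among the arrays apart on the first component. With the description number as a block, the median of the members for Th2 minus Th0 was 0.26 (0.54 without a block). Tigit was then at 0.09 and Havcr2 at 0.26 in that comparison. With the title number as a replicate block, 8 genes were called in Th17 against Th0 and 11 in Th17 against Th2, and with the description number 5 and 5. The blocked fits called 0 members. They turned Cd28 in Th17 minus Th0 to 0.083 and Btla in Th17 minus Th2 to 0.225 (title number), and Pdcd1 to 0.137 and Icos to 0.103 in Th17 minus Th2 (description number).

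Other changes of sign were as follows. In Th17 minus Th2, centring on the median gave 0.0021 for Pdcd1 and 0.013 for Icos, and array weights gave 0.052 for Icos and -0.172 for Cd200. Without the 3 arrays apart, Th17 minus Th0 was 0.083 for Cd28, Th2 minus Th0 was -0.127 for Havcr2, -0.080 for Tigit, 0.238 for Icos and -0.177 for Cd200, and Th17 minus Th2 was 0.239 for Pdcd1, 0.315 for Havcr2 and 0.115 for Tigit. Without the 3 basophil-marker arrays, Th17 minus Th0 was -0.033 for Btla, and Th17 minus Th2 was 0.151 for Tigit and 0.395 for Icos. With single arrays left out, Th17 minus Th0 ran from -0.89 to 0.0054 for Lag3, -0.31 to 1.19 for Tigit, -0.081 to 0.58 for Btla, -0.40 to 0.089 for Icos, -0.25 to 0.18 for Cd28 and -0.19 to 0.08 for Cd274. Th2 minus Th0 ran from -0.00076 to 1.498 for Tigit and -0.44 to 0.091 for Icos. Th17 minus Th2 ran from -0.20 to 0.13 for Pdcd1, -0.47 to 0.23 for Btla, -0.15 to 0.23 for Icos and -0.049 to 0.68 for Cd200.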
